A study of Mus musculus with 12 samples.

Results

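The adipocyte genes described here are Adipoq, Lep, Retn, Cfd, Cidec, Plin1, Fabp4, Pparg, Lpl and Ucp1, found by their gene name on the arrays. All 10 were on the array, which carries 27025 gene names, and they were read by 14 probes. The RNA came from whole back skin of male C57BL/6J mice, bought at 8 weeks of age, shaved and given 200 µL per day on the back from the day after shaving. The groups were MXD (3% minoxidil, a hair growth drug), N-CE (10% cell extract of the cactus Notocactus ottonis) and VC (propylene glycol, ethanol and water at 5:3:2), the vehicle that both treated groups also received. Every group of a given week is the combined RNA of 6 mice, taken after 1, 2 or 3 weeks (1W, 2W, 3W), so there is 1 pool and no biological replicate. A treated pool and its VC pool were read together on 2 arrays between which the Cy3 and Cy5 dyes were swapped, for 6 comparisons on 12 arrays. MXD and N-CE of a week share 1 VC pool and 1 slide, so their values stand side by side and are not independent, and week and slide cannot be told apart.

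Mouse back skin holds a layer of white fat cells below and around the hair follicles, called dermal white adipose tissue, which thickens while follicles grow and thins when they rest. Its cells store triglyceride in a droplet coated by perilipin 1 (Plin1) and Cidec, take up fatty acids released by lipoprotein lipase (Lpl), carry them with Fabp4, and secrete the adipokines adiponectin (Adipoq), leptin (Lep), resistin (Retn) and adipsin (Cfd). The nuclear receptor PPARγ (Pparg) directs fat cell formation and much of this gene set, together with C/EBP factors. Ucp1, the uncoupling protein of brown and beige fat, makes heat and marks a different kind of fat cell.

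The probes are 60-base oligos, and those of the adipokines Adipoq and Retn are shown as examples of genes called lower at MXD 2W, beside that of Ucp1, which stayed near background. Positions are on mm9. The capitals in the pair of Retn probes mark the 22 bases that both contain, so these readings of Retn are not independent.
Adipoq, chr16:23157576-23157635, plus strand: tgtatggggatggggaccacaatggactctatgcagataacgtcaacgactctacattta
Retn, the brighter probe, chr8:3656107-3656928, plus strand: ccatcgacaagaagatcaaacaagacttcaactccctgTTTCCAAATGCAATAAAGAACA
Retn, the second probe, chr8:3656145-3656966, plus strand: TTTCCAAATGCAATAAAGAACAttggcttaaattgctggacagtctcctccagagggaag
Ucp1, chr8:85821788-85821847, plus strand: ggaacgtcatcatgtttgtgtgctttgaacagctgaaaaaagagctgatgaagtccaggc
The span of each Retn probe on the genome is wider than the oligo, as an intron lies inside it. The other probes were read on chromosome 10 for Cfd, 6 for Lep, Cidec and Pparg, 3 for Fabp4, 7 for Plin1 and 8 for Lpl.

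RefSeq start sites (GRCm38.p6) were given for 8 of the 10 genes, with 11 promoters between them. The 250 bases before each start were searched on both strands for the C/EBP core TTGCNNAA and for AGGTCA, the half-site of PPARγ and other nuclear receptors. The C/EBP core was present in 4 of the 11 promoters, those of Lep, Plin1, 1 of the Cidec starts and 1 of the Pparg starts, against 9.6% of all 32851 promoters searched. AGGTCA was present in 3 of 11, at the other Pparg starts and at Ucp1, against 14.0% of all promoters. The windows of Lep and Plin1 are shown with the C/EBP core in capitals, as these genes behaved differently over the weeks. A match of letters is not a binding site, and binding was not measured.
Lep, chr6:29059971-29060220, plus strand: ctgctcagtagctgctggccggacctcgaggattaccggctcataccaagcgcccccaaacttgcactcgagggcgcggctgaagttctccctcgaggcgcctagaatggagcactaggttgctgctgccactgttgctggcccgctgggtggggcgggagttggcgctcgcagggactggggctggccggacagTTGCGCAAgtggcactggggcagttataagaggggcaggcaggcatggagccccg
Plin1, chr7:79732777-79733026, minus strand: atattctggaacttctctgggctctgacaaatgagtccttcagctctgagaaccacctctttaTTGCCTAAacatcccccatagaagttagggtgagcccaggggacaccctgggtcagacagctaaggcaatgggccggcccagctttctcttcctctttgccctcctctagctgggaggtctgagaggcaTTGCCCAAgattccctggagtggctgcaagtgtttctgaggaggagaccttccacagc
The core lay 55 bases before the start of Lep, and 187 and 58 bases before that of Plin1.

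Of the 10 genes, 9 were well above background in both channels of all 12 arrays, so fat cell RNA was present in every pool. Ucp1 was not: its VC channel passed the background test on 1 array each of MXD 2W and N-CE 2W, its treated channel on 1 array of N-CE 2W, and no other reading passed. No fold of Ucp1 is read as a result, though its fold enters the adipocyte median at N-CE 2W. Its mean level was between 5.87 and 6.31 on a log2 intensity scale in all 9 pools. The members' folds below are the mean of the deposited log ratios of the 2 arrays, turned to treated over VC and given as log2, with the SD over these arrays. A gene was called when both arrays moved the same way, each with a scanner software P under 0.01. Its mean fold also had to exceed 1.5 or fall short of 0.75. The limits on P and fold are the study's, while the demand that both arrays pass was set here. The P describes a spot and not the mice. In whole skin, fewer fat cells and less of an RNA per fat cell cannot be told apart.

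**Figure D1:**
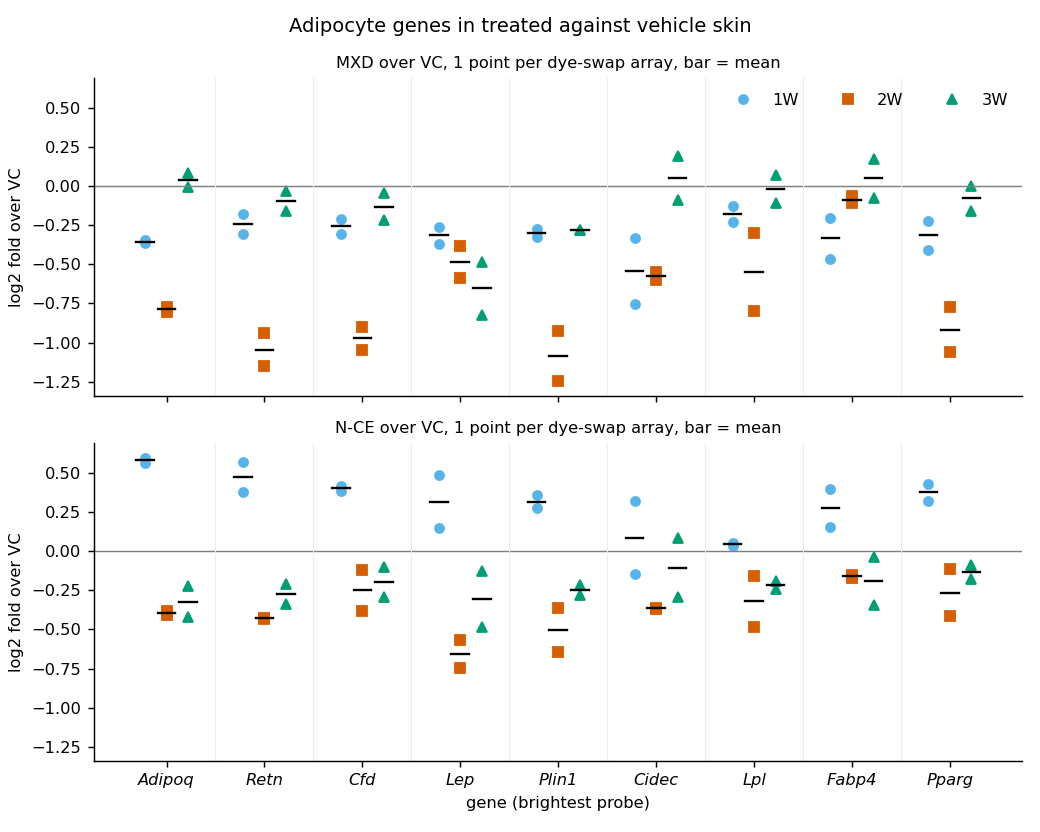
Log2 fold over VC (y axis) of 9 adipocyte genes (x axis) in MXD (top) and N-CE (bottom), with 1 point per dye-swap array, a bar for the mean, and colours and shapes for 1W, 2W and 3W. At MXD 2W all points of Adipoq, Retn, Cfd, Plin1 and Pparg lie below −0.7, while at N-CE 1W every point lies above 0 but for 1 array of Cidec; Ucp1 is left out because it was near background.

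MXD 2W was the comparison in which adipocyte RNAs were lowest. Of the 10 genes, 6 were down-regulated (Adipoq, Retn, Cfd, Plin1, Cidec and Pparg) and 0 were up-regulated, against 16.3% of all measured genes called in either direction and 10.1% called lower in MXD. The 9 genes with a fold were all below 0, with a median of −0.79 (range −1.08 to −0.09), while the median of all measured genes was 0.03. These 9 genes stood between the 5.2 and 40.8 percentile of all measured genes in that comparison.

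Among the adipokines, Retn read −0.94 on the first array and −1.15 on the second, a mean of −1.04 ± 0.15 (SD over 2 arrays), or 0.485 times VC. The second Retn probe read −1.23 and −1.26. Retn was thus low on both probes and both arrays. Cfd, a serine protease of the complement system, read −1.04 and −0.90 (−0.97 ± 0.10, 0.510 times VC). Adipoq, the most abundant fat hormone in blood, read −0.77 and −0.80 (−0.79 ± 0.02, 0.579 times VC). These adipokines were low on both arrays, whichever dye carried the MXD pool. Lep behaved differently and read −0.59 and −0.39 (−0.49 ± 0.14), with P under 0.01 on the first array alone, and it was not called.

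Of the droplet proteins, Plin1 was the lowest member by brightest probe, with −1.25 and −0.92 on the 2 arrays (−1.08 ± 0.23, 0.472 times VC). Cidec, which makes droplets fuse and grow, read −0.55 and −0.60 (−0.57 ± 0.04, 0.671 times VC). Plin1 was therefore lower than Cidec on each array. Lpl, the lipase that frees fatty acids from lipoproteins in blood, read −0.30 and −0.80 on its brighter probe and −0.52 and −0.32 on the other, and was not called on either. Its arrays were apart by more than those of the other members. Fabp4, the fatty acid carrier of fat cells that endothelium and macrophages also make, read −0.07 and −0.11 on its brightest probe, and −0.13 and 0.10 and −0.24 and 0.05 on the other probes. Of the 9 genes, Fabp4 thus stayed nearest to VC. Pparg read −0.77 and −1.06 (−0.92 ± 0.21, 0.530 times VC), and its probe is printed 10 times on each array: all 10 copies passed P under 0.01 on both arrays, with copies between −0.81 and −0.70 on the first and between −1.09 and −1.02 on the second. The copies of one array thus agreed more closely than the arrays did.

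MXD 1W showed lower values of the same genes, at a smaller size in the mean for all but Fabp4, and 0 of 10 were called, against 2.52% of all measured genes. All 9 genes with a fold were below 0 on both arrays, with a median of −0.31 (range −0.54 to −0.18), and they stood between the 4.2 and 23.1 percentile of all genes. Adipoq read −0.37 and −0.34, Plin1 read −0.32 and −0.28, and Pparg read −0.22 and −0.41. The lowest was Cidec, at −0.75 and −0.33, a mean of −0.54 against −0.57 at 2W. Fabp4 read −0.20 and −0.47, a mean of −0.33 against −0.09 at 2W.

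MXD 3W no longer held this shift. The median was −0.08 (range −0.65 to 0.05), 0 of 10 genes were called against 0.584% of all measured genes, and Adipoq read −0.01 and 0.08. Lep was the exception, at −0.82 and −0.49 (−0.65 ± 0.24, 0.636 times VC). It stood at the 0.9 percentile of all genes there, with 9 of 9 usable copies past P under 0.01 on the first array and 2 of 10 on the second, and was not called. Plin1 read −0.28 on both arrays. With MXD, the mean of Lep was thus lower at each later week, though its arrays overlapped between 2W and 3W, while Adipoq, Retn, Cfd, Plin1 and Pparg were lowest at 2W.

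N-CE 1W ran the other way. All 9 genes with a fold were above 0 in the mean, with a median of 0.31 (range 0.04 to 0.58), and the highest were Adipoq (0.56 and 0.59, mean 0.58 ± 0.02), Retn (0.57 and 0.38, mean 0.47 ± 0.14) and Cfd (0.38 and 0.41, mean 0.40 ± 0.02). None of the 10 passed the thresholds, against 3.34% of all measured genes called: Adipoq had P of 0.008 and 0.005 but a fold of 1.493, just under the limit. Pparg read 0.43 and 0.32, Plin1 0.27 and 0.36, and Lep 0.14 and 0.48. These genes were above VC on each array. Cidec read −0.15 and 0.32, and Lpl 0.05 and 0.03, so neither is distinguished from VC by its arrays. In percentiles, the 9 genes lay between 54.5 (Lpl) and 97.9 (Adipoq).

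N-CE 2W brought lower values again. Lep was called, at −0.75 and −0.57 (−0.66 ± 0.12, 0.634 times VC), which makes 1 of 10 genes, against 0.195% of all measured genes called, 36 of 18495 genes. The second lowest was Plin1, at −0.64 and −0.36, followed by Retn at −0.44 and −0.43 and Adipoq at −0.38 and −0.41. All 9 genes measured on every array were below 0 on both arrays. Their folds were small but lay on the low side of all genes, between the 0.6 percentile (Lep) and the 15.1 percentile (Fabp4). The median was −0.34 with Ucp1, which passed the background test on 1 of 2 arrays in each group there, and −0.37 without it. N-CE 3W read slightly lower than VC for all 9 genes in the mean, with a median of −0.22 (range −0.32 to −0.11) and 0 of 10 called, against 0.419% of all measured genes. Adipoq was the lowest there, at −0.42 and −0.22.

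MXD and N-CE of the same week can be set against each other directly, since they share the VC pool. At 1W the median difference of MXD minus N-CE over the 9 genes was −0.63, from −0.93 for Adipoq to −0.22 for Lpl. For 8 of the 9 genes both MXD arrays were below 0 and both N-CE arrays above. The share of all measured genes with such opposite arrays was not computed, so this count has no background to stand against. At 2W the median difference was −0.39. Cfd (−0.72 ± 0.21), Pparg (−0.65 ± 0.29), Retn (−0.61 ± 0.15) and Plin1 (−0.58 ± 0.30) were lower with MXD by more than the SD over arrays, as were Adipoq (−0.39 ± 0.03) and Cidec (−0.21 ± 0.03). Lpl (−0.23 ± 0.42) differed by less than that SD. Lep (0.17 ± 0.19) and Fabp4 (0.08 ± 0.03) were not lower with MXD by these folds. That SD leaves out how VC readings at 2W differed between MXD and N-CE arrays. As MXD arrays minus N-CE arrays, this was 0.32 for Cidec, 0.19 for Adipoq and −0.58 for Fabp4. By level (log2 intensity), Cidec at 2W was higher in MXD (14.04) than in N-CE (13.93), and Fabp4 was lower (15.02 against 15.50). Cfd, Pparg, Retn, Plin1 and Adipoq were lower in MXD by level too. At 3W the median difference was 0.16, with Adipoq higher in MXD by 0.36 ± 0.15. Lep went the other way by about its SD (−0.35 ± 0.35), and Plin1 stood at −0.03 ± 0.05.

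Across the weeks, limma's moderated test on the 3 weekly log2 folds, with Benjamini-Hochberg adjustment over 31553 probes, called 0 of the 10 genes for MXD, for N-CE and for MXD minus N-CE, against 0% of all probes in each fit. Unadjusted p was under 0.05 for 2667, 906 and 1907 probes in these fits. Lep under MXD was the 1 member among them, with a mean of −0.49 ± 0.12 (SE) and an adjusted p of 0.583 by limma. Plin1 had the lowest mean under MXD, −0.56 ± 0.21 (SE), with the same adjusted p. Under N-CE the 9 means lay between −0.22 and −0.01, as 1W and the later weeks had opposite signs. In this fit weeks stand in for replicates, and a change at 2W alone enters as spread.

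**Figure D2:**
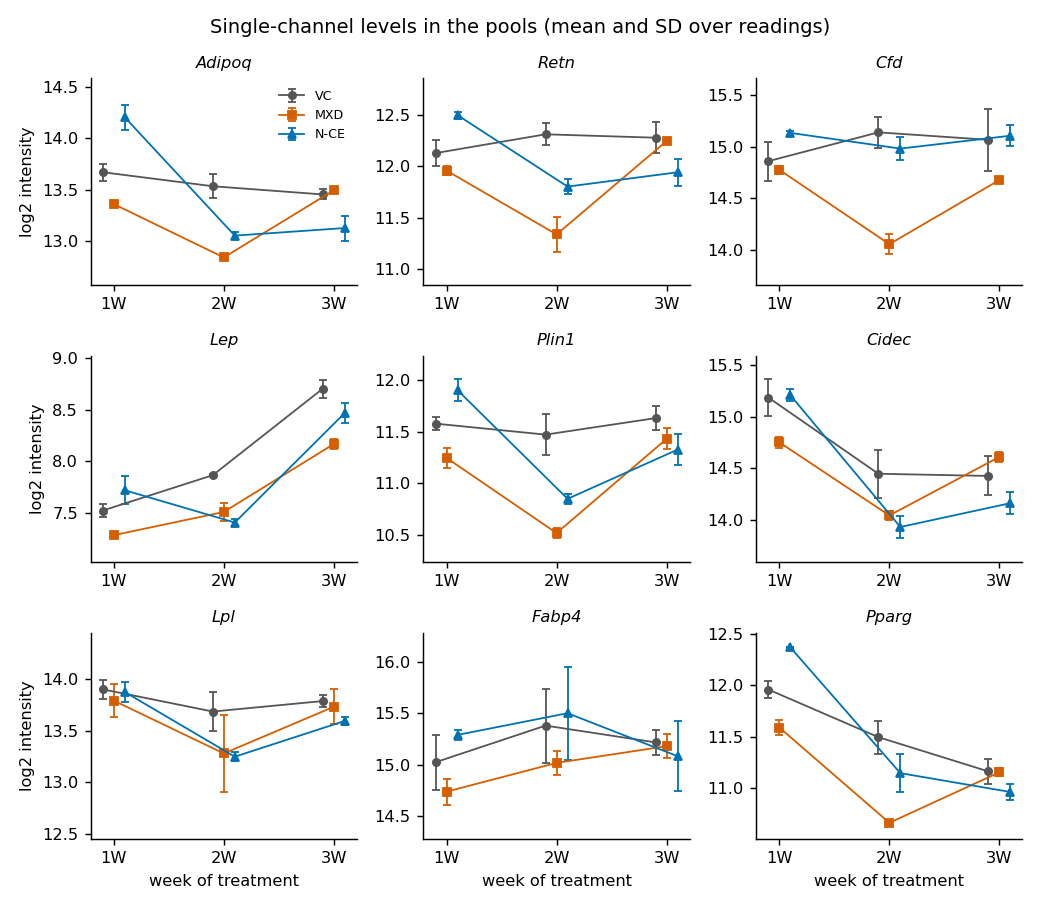
Single-channel log2 intensity (y axis, each panel spans the same range) of 9 adipocyte genes by week (x axis) in the VC pool (mean and SD over 4 readings), the MXD pool and the N-CE pool (2 readings each). In VC, Lep rises from 7.52 to 8.70 while Pparg falls from 11.96 to 11.16; Adipoq at 2W lies at 12.84 in MXD and 13.53 in VC.

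The level of each gene in each pool was read from single channels, where VC of a week has 4 readings. VC itself differed between weeks for some genes. Over the 3 weeks, Lep in VC was 7.52 ± 0.06, then 7.87 ± 0.01, then 8.70 ± 0.09 (log2 intensity, SD over 4 readings), an ascending order in which no readings overlap. Pparg in VC went the other way, with 11.96 ± 0.08, 11.50 ± 0.16 and 11.16 ± 0.12. Cidec in VC was 15.19 ± 0.17 at 1W and lower at 14.45 ± 0.23 and 14.43 ± 0.19 afterwards. Adipoq in VC was 13.67 ± 0.08, 13.53 ± 0.12 and 13.45 ± 0.05, with no overlap of readings between 1W and 3W. The readings of Retn (12.13, 12.31 and 12.28), Plin1 (11.58, 11.47 and 11.63) and Fabp4 (15.02, 15.38 and 15.22) overlapped between weeks. Lep in MXD was 7.28, 7.51 and 8.17 and in N-CE 7.72, 7.41 and 8.47 over the same weeks, so its highest level was at 3W in all groups. The readings of 1 VC pool on the MXD and on the N-CE arrays differed in size by a median of 0.12, 0.23 and 0.14 over the 9 genes in the successive weeks, and by at most 0.58 for a single gene (Fabp4 at 2W). Differences between weeks also hold the difference between slides.

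**Figure D3:**
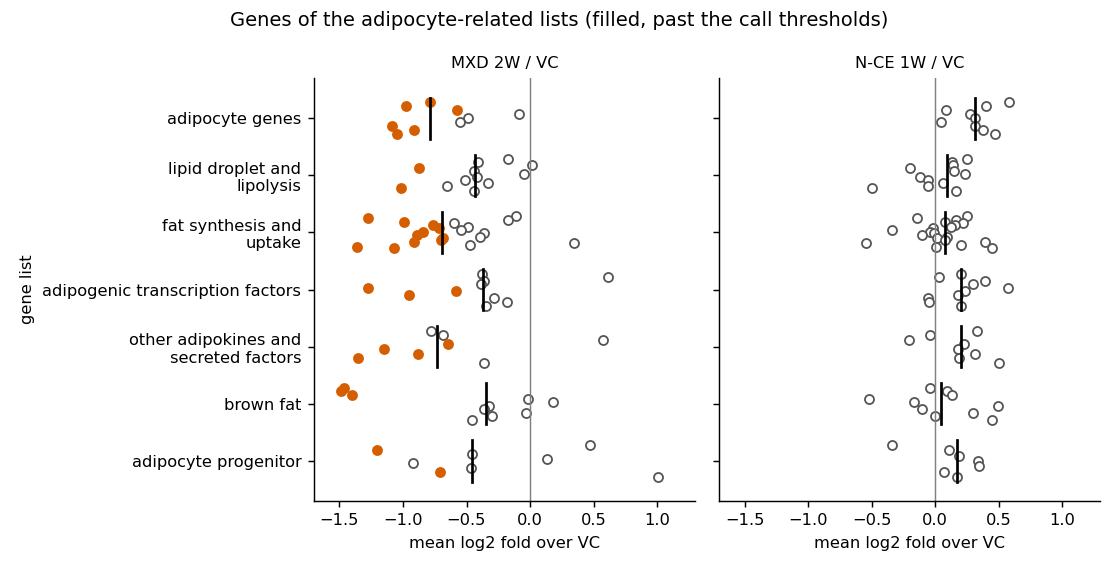
Mean log2 fold over VC (x axis) of each gene in 7 adipocyte-related lists (y axis) at MXD 2W (left) and N-CE 1W (right); filled points passed the call thresholds, open points did not, and the vertical bar is the list's median. At MXD 2W the filled points all lie below 0, and at N-CE 1W none is filled.

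Other genes of fat storage were read from fixed lists, whose counts at MXD 2W stand against the 10.1% of all measured genes called lower there. Of 20 measured genes of fat synthesis and uptake, 11 were down-regulated at MXD 2W and 0 up-regulated, with a median of −0.69. They were led by Slc2a4, the insulin-regulated glucose transporter of fat and muscle (−1.32 and −1.41), Acacb, an acetyl-CoA carboxylase (−1.64 and −0.91), and Thrsp, a regulator of lipogenesis (−1.04 and −1.10). Fasn, Scd1, Gpd1, Acsl1, Cd36, Dgat2, Me1 and Lpin1 were also called lower. Skeletal muscle genes were lower in the same comparison (median −1.46), and their part in the values of this list was not tested. Scd2 read above VC on both arrays (0.13 and 0.55), and Acaca was split between arrays (0.23 and −0.46). At MXD 1W the median of that list was −0.43, and 5 of 20 genes were called lower, against 2.52% of all measured genes called in either direction: Agpat2 (−0.74 ± 0.06), Elovl6 (−0.67 ± 0.12), Thrsp (−0.65 ± 0.06), Slc2a4 and Lpin1. Muscle (−0.65) and sebaceous gland (−0.58) medians were below 0 there too, and their part was not tested. In the other 4 comparisons 0 of 20 were called, with medians between −0.27 and 0.08. Of all measured genes, 0.584% (MXD 3W), 3.34% (N-CE 1W), 0.195% (N-CE 2W) and 0.419% (N-CE 3W) were called there.

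Of 12 measured genes of the lipid droplet and of lipolysis, 2 were down-regulated at MXD 2W, Plin5 (−1.02 ± 0.37) and Cidea (−0.88 ± 0.06), and the median was −0.43. A count of 2 in 12 is near the share of all genes. The lipase genes were not called: Pnpla2, the first triglyceride lipase, read −0.10 and −0.78, and Lipe, hormone-sensitive lipase, 0.17 and −0.27. Of 10 adipogenic transcription factors, 3 were down-regulated there, Ebf2 (−1.27 ± 0.09), Mlxipl (−0.95 ± 0.23), which answers to glucose, and Klf15 (−0.59 ± 0.01). Cebpa, the partner of PPARγ, read −0.22 and −0.53, and Cebpb read 0.72 and 0.52, the 1 gene of this list above VC, neither of them called. Of 8 other adipokines and secreted factors, Retnla (−1.36 ± 0.04), Rarres2, which encodes chemerin (−1.15 ± 0.00), Rbp4 (−0.88 ± 0.08) and Nampt (−0.65 ± 0.13) were down-regulated. Angptl4, an inhibitor of Lpl, read 0.48 and 0.66 at MXD 2W. At N-CE 2W it was the 1 gene of these lists called higher (0.65 ± 0.02), where 0.195% of all measured genes were called. It was above VC there while all 9 measured members were below it.

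Of the 10 other brown fat genes, Cox8b (−1.49 ± 0.01), Cox7a1 (−1.46 ± 0.23) and Cpt1b (−1.40 ± 0.07) were down-regulated at MXD 2W, and these are also expressed in muscle. The median of this list was −0.34, and Ucp1 was near background. Of 8 adipocyte progenitor genes, Cd34 (−1.20 ± 0.08) and Pdgfrb were down-regulated at MXD 2W and 0 up-regulated. Wnt10b, a Wnt ligand that restrains fat cell formation and is made by growing follicles, read 1.01 ± 0.34 there without being called, and passed the background test on 1 of 2 VC arrays. Dlk1, the preadipocyte factor, was called higher at MXD 1W (0.73 ± 0.19), a call lost after normexp and loess, where it read 0.44.

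**Figure D4:**
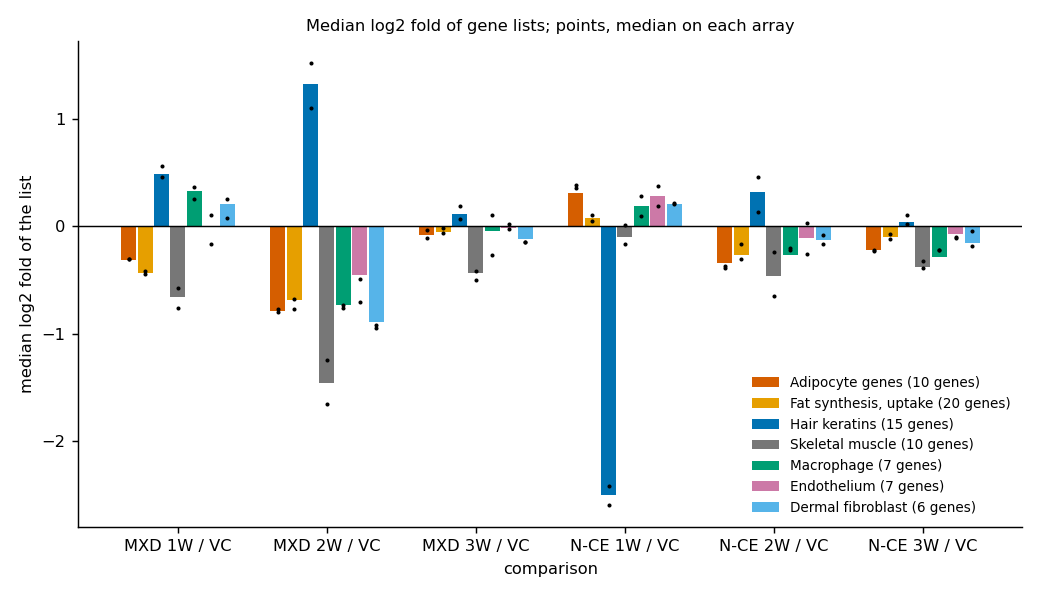
Median log2 fold over VC (y axis, bars from 0) of 7 gene lists in the 6 comparisons (x axis), with 2 black points for the medians of single arrays. The hair keratins rise to 1.33 at MXD 2W, where the adipocyte genes stand at −0.79, and fall to −2.51 at N-CE 1W, where the adipocyte genes stand at 0.31. The adipocyte median at N-CE 2W includes Ucp1.

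In place of hair growth of the same week, RNA of keratins that build the hair and its inner root sheath was set beside these values. It was read on the same arrays, as hair areas were not analysed here. Keratin RNA over VC is not a measure of hair area, and the values below do not give hair growth itself. At MXD 1W the adipocyte median was −0.31 and that of 15 hair keratins 0.49. At MXD 2W they were −0.79 against 1.33, and at MXD 3W −0.08 against 0.11. N-CE 1W gave 0.31 against −2.51, N-CE 2W −0.34 (with Ucp1) against 0.32, and N-CE 3W −0.22 against 0.04. The comparisons share VC pools by week. The lists lay on opposite sides of 0 at 1W and 2W of both treatments, where 8 or 9 of the 9 adipocyte genes measured on every array lay on one side of 0 on both arrays. At 3W a sign is not told apart from 0: the keratin median at N-CE 3W (SD 0.06 over arrays) held 8 genes above and 7 below 0, and at MXD 3W 3 of 9 adipocyte genes were above 0. Of the 15 keratins at N-CE 1W, 14 were below 0. Of 8 regulators of the growing follicle, such as Lef1 and Shh, all 8 were called higher at MXD 2W and all 8 lower at N-CE 1W. Of all measured genes, 16.3% and 3.34% were called in either direction in these comparisons. The medians of the regulators were 1.23 and −1.92. The latter is over 7 genes, as Shh was not well above background in the N-CE pool.

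Markers of other skin cells moved beside the adipocyte genes, and their part in these results was not tested. At MXD 2W, 10 of 10 skeletal muscle genes were called lower (median −1.46), as were 4 of 7 macrophage genes (−0.74), 4 of 6 dermal fibroblast genes (−0.89), 3 of 7 endothelial genes (−0.46) and 1 of 7 sebaceous gland genes (−0.40). Of all measured genes, 10.1% were called lower there, and 1 of 7 is near that share. The sebaceous gland median was −0.15 on the first array and −0.65 on the second. The adipocyte median of −0.79 lay within the range of these lists. At MXD 1W the lists were apart: adipocyte genes (−0.31), fat synthesis genes (−0.43), muscle (−0.65) and sebaceous gland (−0.58) were below 0, while macrophage (0.33) and fibroblast genes (0.21) were above and endothelium stood at −0.01. At N-CE 1W the macrophage (0.19), endothelial (0.28) and fibroblast (0.21) medians were above 0 like that of the adipocyte genes (0.31), and muscle stood at −0.10. None of these genes was called there, against 3.34% of all measured genes. At N-CE 2W muscle stood at −0.46, with 1 of 10 genes called, Myh1 (−0.67 ± 0.11), against 0.195% of all measured genes. Macrophage stood at −0.27, fibroblast at −0.13 and endothelium at −0.11. The adipocyte genes, with Ucp1 among them, were at −0.34 there. At N-CE 3W, muscle (−0.38), macrophage (−0.28) and fibroblast (−0.16) medians were below 0 beside the adipocyte genes (−0.22), with endothelium at −0.07. At MXD 3W muscle stood at −0.44 with 2 of 10 genes called lower, Ttn and Myh1, against 0.584% of all measured genes called in either direction. The other medians there were −0.04 for macrophage, −0.12 for fibroblast and −0.01 for endothelium.

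The members followed the median profile of the 9 genes over the 6 comparisons to different degrees. Pearson's r with that profile was 0.99 for Retn and Pparg, 0.98 for Cfd, Adipoq and Plin1, 0.95 for Lpl, 0.85 for Cidec, 0.66 for Lep and 0.64 for Fabp4, each over 6 points that share VC pools and with the gene itself in the median. Lep and Fabp4 thus stood apart from the rest. Between its lowest and highest comparison, Retn spanned 1.52, Plin1 1.40, Cfd 1.37 and Adipoq 1.37 on the log2 scale, against 0.59 for Lpl and 0.61 for Fabp4. Among 7261 other genes well above background on every array and spanning at least 0.5, the 8 with the most similar profile were Arhgef15, BC026585, Bri3, Lrp3, Abcd2, Cnp, St6galnac6 and Nr1h3, with r between 0.99 and 1.00. These 8 were picked for their r over 6 points, so a high r follows from the choice. It compares the shape of a profile and not its level. Abcd2, a peroxisomal fatty acid transporter abundant in fat, read −0.79 at MXD 2W and 0.37 at N-CE 1W. Nr1h3, the oxysterol receptor LXRα, read −0.74 and 0.44 in the same comparisons. Arhgef15, an exchange factor of endothelial cells, read −0.25 and 0.42. At MXD 1W it read 0.02, where the adipocyte median was −0.31.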

How the data were processed

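RNA of whole back skin was measured on 2-colour Agilent arrays, 2 dye-swap arrays for each treated pool against its VC pool. The authors deposited Feature Extraction output (version 12.0.3.1 per the file headers, 11.0.1.1 per the labels): a log10 ratio (Cy5 to Cy3, background-subtracted and LOWESS dye-normalized), a p-value of each spot, and the signal intensity of each channel. The deposited matrix holds the log10 of processed Cy5 to Cy3 intensity, matched within 1e-05 at 43379 of 43379 transcript spots. No spot was saturated, and between 57.0% and 69.6% of spots per channel were well above background; the number of arrays limits the precision.

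Ratios were signed so that positive means higher in treated skin and converted to log2, control and outlier spots left out, and spots of a probe averaged. A gene is represented by its brightest probe of 12 arrays. List medians use genes above background in both groups. Levels come from normexp, loess and Aquantile. Tests used R 4.3.3 with limma 3.58.1 and Python 3.11.15 with pandas 2.3.3. The call rule and the limma fit were run on simulated data with independent noise. Those runs do not cover shared VC pools, or shifts as small as most of those read here. Within a week no test is possible. The p-values of limma measure the spread between weeks.

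Named are all 10 genes with each probe, the 3 genes of other lists that changed most or those called where 5 or fewer were, and 8 genes of most similar profile. Further list genes called at MXD 2W, and Scd2, Acaca, Pnpla2, Lipe, Cebpa, Cebpb, Angptl4, Wnt10b, Lef1 and Shh, were named after their values were seen. The members and lists were chosen with earlier results of these data known. Alternatives covered background correction, single arrays, all probes of a gene, matrix values, outlier spots, call thresholds, left-out weeks and the slide as a block.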

Additional observations from a re-analysis of the deposited data

Results flagged for a closer look

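For 8 of the 9 measured genes, both MXD arrays at 1W were below 0 and both N-CE arrays above. The difference was not tested because each group is 1 pool, and the share of all measured genes with this pattern was not computed. The difference of MXD minus N-CE was −0.93 for Adipoq, −0.72 for Retn, −0.69 for Pparg, −0.66 for Cfd, −0.63 for Lep, −0.61 for Plin1, −0.61 for Fabp4 and −0.22 for Lpl on the log2 scale. Lpl at N-CE 1W lay close to VC (0.05 and 0.03). Hair keratins were higher in the MXD pool and lower in the N-CE pool, and their part in this was not tested.

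Within N-CE the same genes were above VC on both arrays at 1W and below it on both arrays at 2W, which was not tested either, and for Lpl the 1W readings lay close to VC. The difference of 1W minus 2W was 0.97 for Adipoq, 0.97 for Lep, 0.90 for Retn, 0.82 for Plin1, 0.65 for Cfd, 0.64 for Pparg, 0.44 for Fabp4 and 0.36 for Lpl. Against 3W, also below VC on both arrays, the difference was 0.90 for Adipoq, 0.75 for Retn, 0.62 for Lep, 0.60 for Cfd, 0.56 for Plin1, 0.51 for Pparg, 0.47 for Fabp4 and 0.26 for Lpl. Week and slide cannot be told apart in these differences. The share of all measured genes with such a change of sign between weeks was not computed.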

How the results depend on the processing

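The medians of the adipocyte genes in the 6 comparisons moved by less than the typical SD of a member over its arrays (0.08 to 0.15) under each alternative, though at times by more than the closely matched medians of single arrays differed: normexp with loess, single arrays, all probes of a gene, matrix values, outlier spots kept, and genes above background on every array. Without the P criterion, and likewise with normexp and loess without P, 1 gene was called at MXD 1W in place of 0, 1 at MXD 3W in place of 0, and 3 at N-CE 2W in place of 1. Without P, 8.99%, 3.18% and 3.15% of all measured genes passed in these comparisons, so 1 of 9 at MXD 1W is near the share of all genes. At MXD 2W, 8 of 10 members passed without P in place of 6, against 31.9% of all measured genes in place of 16.3%. Symmetric folds changed no count by more than 1.5 times, but Cidec lost its call at MXD 2W. Its fold of 0.671 lay below 0.75 and above 1/1.5. The other calls of members were kept. The limma fits called 0 members without each week, with normexp and loess, and with the slide as a random block, which called 1 probe in all under MXD. The fold of Lep shrank under normexp with loess, at N-CE 2W from −0.66 to −0.46 and at MXD 3W from −0.65 to −0.51.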
